A study of Mus musculus with 8 samples.

Results

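RAW 264.7 macrophages were exposed to Bacillus clausii (strain MTCC-8326) or Lactobacillus acidophilus (strain MTCC-10307), and in the first hours the chemokines Cxcl2, Ccl2, Ccl3, Ccl4 and Ccl7 had high ratios of treated over untreated cells with both. No gene passed the test of a difference between the bacteria. At both hours 7 genes were at least 1.5-fold apart. Rock1, Ccar1, Copg2, Heatr6 and Smarca4 had lower ratios after B. clausii than after L. acidophilus, and Pnoc and Prss55, both dim, had higher ones. Each was read from its brightest probe. Another probe of Smarca4, nearly as bright, and the other kept probe of Heatr6 lacked the difference. With the mean over a gene's kept probes 2 genes were that far apart. The comparison rests on 4 of the 8 arrays of the study: the arrays of each bacterium at 1 h and at 2 h. They were taken by the label of the sample alone, starting from every non-control spot. On each array the RNA of treated cells carried the red dye Cy5, and that of untreated cells of the same time the green dye Cy3. The quantity followed throughout is the log2 ratio of treated over untreated signal, and the difference of that ratio, L. acidophilus minus B. clausii, at the same hour.

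RAW 264.7 is a mouse macrophage line from the BALB/c strain. Cells received either strain at 100 bacteria per cell (a multiplicity of infection of 100) in medium without antibiotic, and the untreated cells received neither. An array holds equal parts of RNA from 3 cultures of 1 bacterium and time, so it carries no spread between cultures. The later arrays, at 4 h and 6 h, served to estimate the error and to show whether an early difference was still there. All L. acidophilus arrays were on 1 slide and all B. clausii arrays on another, and no dyes were swapped, so slide and bacterium cannot be told apart. Whether the untreated pool of a given hour was shared between the slides is not given.

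Macrophages meet bacteria through Toll-like and other pattern receptors, which switch on NF-kB and MAP kinase signalling. Immediate early transcription factors and chemokines are among the first genes to respond. L. acidophilus is a lactic acid bacterium of the gut and of fermented milk. B. clausii is a spore-forming bacillus that is also given as a probiotic. Both are Gram-positive.

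The 4 early arrays had between 39.6% and 51.5% of probes well above background in the treated channel, and the B. clausii array at 1 h had the lowest share and the widest spread of ratios over genes, an SD of 0.294 against 0.210 to 0.235 on the other early arrays. Of 15 macrophage markers, 14 were above background in both channels of all 4 early arrays, Itgam being the other. Of the markers of neutrophils (9 on the array), T cells, B cells, fibroblasts and epithelial cells (10 of each on the array), 1, 2, 1, 0 and 1 were. Of 10 osteoclast markers, 7 were (Acp5, Oscar, Dcstamp, Ocstamp, Atp6v0d2, Mmp9 and Nfatc1); Ctsk, Calcr and Itgb3 were not. The number of arrays limits the precision: the median standard error of an early difference was 0.09 and the median half-width of its 95% interval 0.22, both on the log2 scale.

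The differences between the bacteria over 14783 genes tested had a correlation of 0.24 between the hours. This is across genes, which are not independent replicates, and the hours share the slides and the dye order. In RNA of whole cultures a large change in few cells and a small one in all cells cannot be told apart. Limma called 0 genes (0% of those tested) at an adjusted p under 0.05, the smallest adjusted p being 0.346. At an unadjusted p under 0.05 there were 1460 genes (9.88%), 878 with the higher ratio after L. acidophilus and 582 with the higher ratio after B. clausii. Leaving out the 1 h or the 2 h arrays leaves 1 early array per bacterium. The error then comes from the late arrays alone, so no count of genes is given for those fits.

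Loess sets the middle of the ratios on an array to 0, so each value is read against the bulk of the genes. The E1A spike-in controls, RNAs added to both channels in known amounts, did not follow that middle. All 10 had a higher ratio on the L. acidophilus slide, by 0.33 to 0.68 at 1 h and by 0.24 to 0.55 at 2 h. Scaled to them, a choice made after seeing the data, the median gene lay at -0.46 and 13706 genes passed the test, 13704 of them higher with B. clausii. With median centring in place of loess the median gene lay at 0.29 and 7409 passed, 7291 of them higher with L. acidophilus. Median centring also sets a middle to 0, that of all spots used, so it too takes out a shift common to them. Its value of 0.29 is the median of the genes kept by the filter. The level common to all genes thus rests on the scaling chosen, and the genes below are described against the typical gene.

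**Figure D1:**
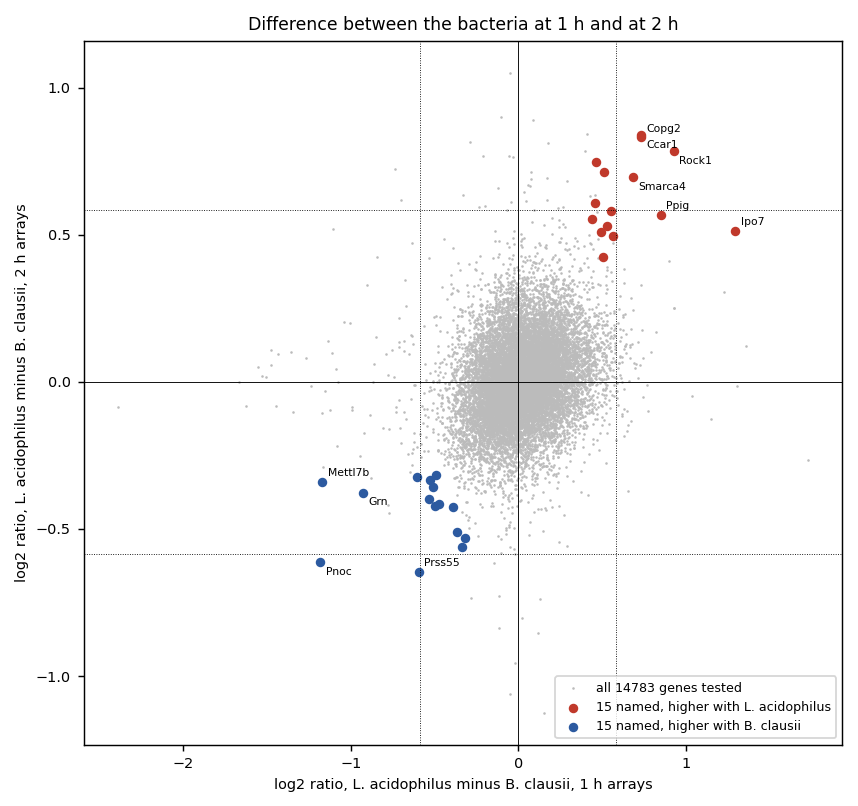
Each point is a gene: the log2 ratio after L. acidophilus minus that after B. clausii on the 1 h arrays (horizontal) and on the 2 h arrays (vertical), with dotted lines at 1.5-fold. Red and blue points are the 15 named genes in each direction; most of the 14783 genes lie in a round cloud about 0, and 7 genes lie beyond 1.5-fold at both hours.

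At 1 h, 165 genes (1.12%) were at least 1.5-fold apart, 82 with the higher ratio after L. acidophilus and 83 after B. clausii. At 2 h there were 51 (0.345%), 38 and 13. At both hours 5 genes (0.0338%) lay higher with L. acidophilus, namely Rock1, Ccar1, Copg2, Heatr6 and Smarca4, and 2 (0.0135%) lay higher with B. clausii, Pnoc and Prss55. Heatr6 was read from a probe with differences of 0.70 and 0.69, while its other kept probe, above background in all 8 early channels, had -0.10 at both hours. No gene was 2-fold apart at both hours. Of all genes, 59.8% had the same sign of difference at 1 h and 2 h.

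The 15 genes with the smallest p and a higher ratio after L. acidophilus at both hours all had a negative ratio on both B. clausii arrays. In each of the 15 both L. acidophilus arrays lay above both B. clausii arrays, a pattern that 19.6% of all genes showed. None passed the test of the early difference. Their rank on p chose them, so the values that follow describe them.

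Rock1, a kinase that drives actomyosin contraction, had log2 ratios of -0.18 and -0.17 after L. acidophilus at 1 h and 2 h and of -1.11 and -0.96 after B. clausii. The B. clausii arrays alone lay well under 0. The difference of 0.86 ± 0.12 (SE) is 1.81-fold, with an adjusted p of 0.346 in limma. At 4 h and 6 h the differences were 1.01 and 0.56.

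Larp7, which binds and holds the 7SK RNA that restrains transcription elongation, had ratios of -0.56 and -0.23 after L. acidophilus and of -1.07 and -0.94 after B. clausii. Rtf1, a factor of the PAF elongation complex, had -0.24 and -0.35 against -0.68 and -0.91. Both genes were negative on all 4 early arrays, and lower on the B. clausii ones. The list of P-TEFb, 7SK and PAF elongation factors as a whole lay near the background. Of 29 tested, 10 were higher with L. acidophilus at both hours and 8 with B. clausii, against 32.5% and 27.2% of all genes. The median difference of the list was 0.01, that of all genes.

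Ccar1, a transcription coactivator, had ratios of -0.19 and -0.30 after L. acidophilus and of -0.93 and -1.14 after B. clausii. Smarca4, the ATPase of SWI/SNF chromatin remodelling complexes, had -0.18 and 0.08 against -0.86 and -0.62. Ppig, a cyclophilin with an arginine-serine rich tail, had -0.35 and -0.49 against -1.20 and -1.06. The bacteria did not overlap in any of these genes.

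Esf1, a nucleolar protein of ribosomal RNA processing, had ratios of -0.33 and -0.37 after L. acidophilus and of -0.79 and -0.98 after B. clausii. Riok1, an atypical kinase of small-subunit maturation, had -0.07 and -0.06 against -0.64 and -0.56. Riok1 was near 0 after L. acidophilus, whereas Esf1 was negative with both.

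Copg2, a subunit of the COPI vesicle coat, had ratios of -0.04 and 0.08 after L. acidophilus and of -0.78 and -0.75 after B. clausii. Kif5b, a kinesin-1 heavy chain, had 0.04 and -0.03 against -0.45 and -0.54. Ipo7, a nuclear import receptor, had 0.56 and 0.17 against -0.73 and -0.34. Ipo7 had the largest 1 h difference of the 15, 1.30, and it shrank to 0.51 at 2 h and to 0.02 over the later arrays.

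Dicer1, the RNase III enzyme that cuts microRNA precursors, had ratios of -0.17 and -0.21 after L. acidophilus and of -0.67 and -0.64 after B. clausii. N6amt1, a methyltransferase, had -0.51 and -0.27 against -1.06 and -0.86. Ehbp1, a protein of endocytic traffic, had 0.20 and 0.13 against -0.33 and -0.40. Raver2, an RNA-binding protein, had 0.15 and 0.21 against -0.31 and -0.54. In Raver2 the treated signals differed by 0.03 and the untreated ones by -0.58. Over all 15 the median difference was 0.53 in the treated channel and -0.08 in the untreated one. Signals of 1 channel also carry differences between the slides, so they do not place a difference in a channel. At both 4 h and 6 h, 12 of the 15 had their early sign, as did 6922 of all 14783 genes.

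**Figure D2:**
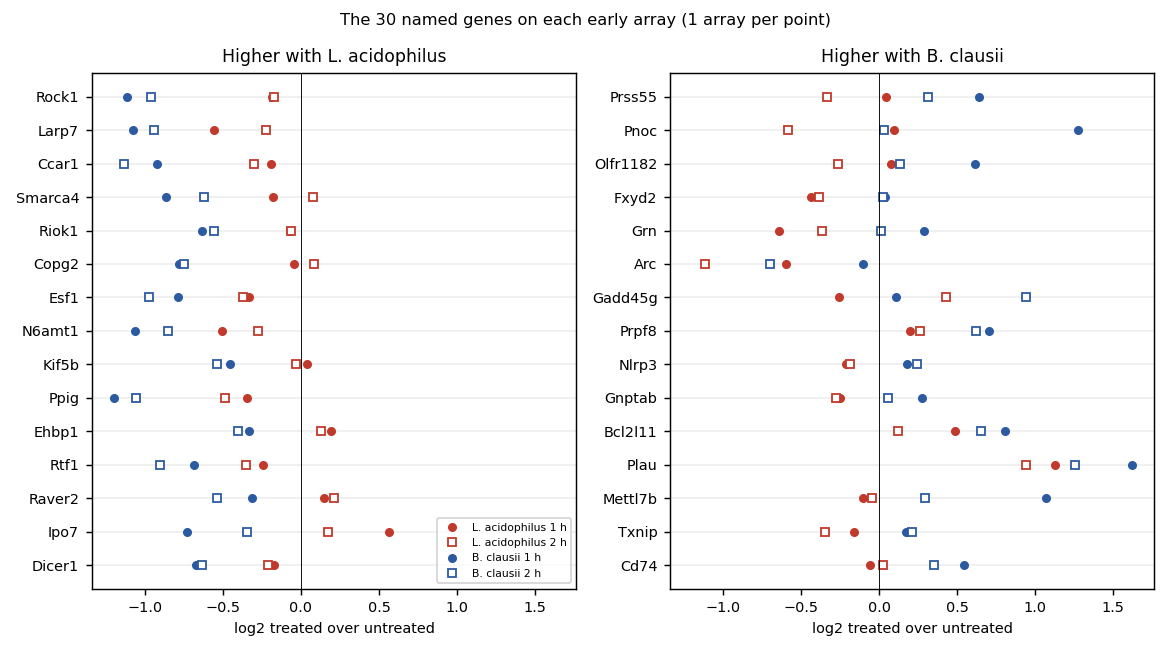
Log2 treated over untreated ratio of the 15 named genes in each direction, 1 point per array (circles 1 h, squares 2 h; red L. acidophilus, blue B. clausii). In the left panel all blue points are under 0 and left of the red ones; in the right panel the colours overlap in Pnoc, Arc and Gadd45g.

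The 15 genes with the higher ratio after B. clausii were more mixed, and none passed the test. In 12 of them both B. clausii arrays lay above both L. acidophilus arrays, against 15.6% of all genes. Prss55, a serine protease gene, Pnoc, the precursor of the peptide nociceptin, the olfactory receptor gene Olfr1182 and Mettl7b were dim. They were above background on 2 or 3 of the 4 treated channels and on at most 1 of the 4 untreated ones. Pnoc had ratios of 0.09 and -0.59 after L. acidophilus and of 1.28 and 0.03 after B. clausii, so its arrays overlapped. At 2 h its treated signals differed by 0.11, the higher being that of L. acidophilus, and its untreated ones by 0.72. These are signals of a dim probe compared between slides, so they do not place the difference in a channel.

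Among the bright genes, Grn encodes progranulin, a lysosomal and secreted growth factor. Its ratios were -0.64 and -0.37 after L. acidophilus and 0.29 and 0.01 after B. clausii, a difference of -0.65 ± 0.13 (SE) with an adjusted p of 0.443 in limma. Gnptab makes the mannose 6-phosphate tag that sends enzymes to lysosomes; its ratios were -0.25 and -0.28 against 0.27 and 0.05. On their brightest probes both genes were negative after L. acidophilus and positive after B. clausii at both hours. The next brightest Gnptab probe differed by 0.07 and -0.08.

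Nlrp3, the sensor of an inflammasome, had ratios of -0.21 and -0.19 after L. acidophilus and of 0.18 and 0.24 after B. clausii. Cd74, the invariant chain of MHC class II, had -0.06 and 0.03 against 0.55 and 0.35. Plau, the urokinase plasminogen activator, was high with both, at 1.13 and 0.94 against 1.62 and 1.26. For Plau the bacteria differed in degree at this probe, whereas for Nlrp3 they differed in sign. The only kept probe of Nlrp3 was less bright than the median gene, at 6.89 log2 units against 8.45. It was above background in all 8 early channels. The other, dimmer kept probe of Plau differed by 0.13 and -0.21.

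Bcl2l11, the pro-death protein Bim, had ratios of 0.48 and 0.12 after L. acidophilus and of 0.80 and 0.65 after B. clausii. Its other kept probe, above background in all 8 early channels, was negative with both, at -0.44 and -0.27 against -0.43 and -0.21. Txnip, an inhibitor of thioredoxin, had -0.16 and -0.35 against 0.17 and 0.21. Gadd45g, a growth arrest gene, had -0.26 and 0.43 against 0.11 and 0.94, so its bacteria overlapped across the hours although each hour had the same sign. Arc had -0.60 and -1.12 against -0.10 and -0.70 and overlapped likewise.

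Fxyd2, a regulator of the sodium pump, had ratios of -0.44 and -0.39 after L. acidophilus and of 0.04 and 0.03 after B. clausii. Prpf8, the central protein of the spliceosome, had 0.20 and 0.26 against 0.71 and 0.62. Its list, the core spliceosome components, had 9 members higher with L. acidophilus and 11 higher with B. clausii at both hours of 34 tested. Over all genes these shares were 32.5% and 27.2%. Of the 15 genes, 10 had their early sign at both 4 h and 6 h. The differences of Nlrp3 (0.03), Txnip (-0.04), Bcl2l11 (-0.06) and Plau (-0.09) were near 0 over the later arrays, while those of Grn (-0.74), Cd74 (-0.64), Prpf8 (-0.53) and Fxyd2 (-0.45) were not.

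Each gene above is read from its brightest probe, and other probes of the same gene often read otherwise. The probes matter for what can be said of each gene, so some are printed here. They are the 60-base oligonucleotides on the array, sense strand, with positions on the mouse build mm9 from the files; G and C are in capitals, and where a probe may reach an untranslated region only its first 30 bases are given.

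Smarca4 brightest probe: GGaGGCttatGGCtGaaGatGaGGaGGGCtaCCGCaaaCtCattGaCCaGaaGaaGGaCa
Smarca4 other bright probe: CCaGatGtaGtttCGaaCttGGaGaaCtGt
Dicer1 brightest probe: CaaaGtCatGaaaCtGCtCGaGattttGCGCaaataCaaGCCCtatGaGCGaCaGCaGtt
Dicer1 other bright probe: GtGaaGtttCaGCttGaGaaGaaCGaaatG
Esf1 brightest probe: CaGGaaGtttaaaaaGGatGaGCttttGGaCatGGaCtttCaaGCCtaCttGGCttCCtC
Esf1 other probe: CaGCaaGaaaCaCttCaattatGaCaaGat
Rtf1 brightest probe: aaGGaGCCtCCtGtGaGtCaGCCtGCaGCC
Rtf1 other bright probe: CattGaCCGaaGCtCtttataGaCtGtttt
Grn brightest probe: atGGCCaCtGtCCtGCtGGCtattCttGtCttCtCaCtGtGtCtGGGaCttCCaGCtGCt
Grn other bright probe: tCCaCtGttCaGCCaGGGGaaCCaaGtGtt
Prpf8 brightest probe: aGtGGGtatGaGtGGGGCCGGCaGaaCaCa
Prpf8 other bright probe: tGCttaaGaaGttCatCtGCatatCtGatC

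The brightest Smarca4 probe lies at chr9:21445519-21446917 on the plus strand and spans an exon junction, since its 60 bases cover 1399 bases of genome. Its difference was 0.68 at 1 h and 0.70 at 2 h. The other bright probe lies further along the transcript, at chr9:21507491-21507550, is nearly as bright (12.3 against 12.7 log2 units), and had differences of 0.06 and -0.15. Its ratios were 0.40 and 0.14 after L. acidophilus and 0.34 and 0.29 after B. clausii, so the arrays of the bacteria overlapped at this probe.

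Dicer1 was alike. Its brightest probe, at chr12:105960373-105960432 on the minus strand, had differences of 0.50 and 0.42. The probe nearer the 3′ end, at chr12:105930664-105932735, was about as bright and had -0.08 and 0.08. For Rtf1 the brightest probe, at chr2:119517897-119517956 on the plus strand, had 0.44 and 0.55, and the one at chr2:119560337-119560397 had -0.13 and 0.05. For Esf1 the brightest, at chr2:139980568-139980627 on the minus strand, had 0.46 and 0.61, and the one nearest the 3′ end, at chr2:139949316-139949375, had -0.11 and 0.21. In these 4 genes the probe nearest the 3′ end of those kept had the smaller difference.

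Position did not sort the probes of every gene. In Ccar1, Ipo7, Rock1 and Riok1 the brightest probe was itself the one nearest the 3′ end by genome position, and the dimmer probes upstream had smaller differences as means of both hours. The dimmest Ipo7 probe, above background in 3 of 8 early channels, had differences of -0.15 and -0.08 where the brightest had 1.30 and 0.51.

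In Grn and Prpf8 both probes had the same direction at both hours. The brightest Grn probe, at chr11:102294591-102294650 on the plus strand, had differences of -0.93 and -0.38, and the other, at chr11:102297692-102297751, had -0.46 and -0.30. The ratios behind them did not match: after L. acidophilus at 1 h the first read -0.64 and the second 0.26. The Prpf8 probes, at chr11:75322315-75322374 and chr11:75320267-75321794, had differences of -0.51 and -0.36 and of -0.37 and -0.17.

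Over the 12 genes of the first 15 with more than 1 kept probe, the next brightest probe had the gene's sign at both hours in 6, and its median difference was 0.26 where that of the brightest was 0.65. Over the 6 such genes of the second 15 it did so in 4, with medians of 0.08 and 0.43 in the gene's own direction. Among all 4835 genes with more than 1 kept probe the share was 35%, and the differences of both probes correlated across genes at 0.11 at 1 h and 0.16 at 2 h. The named genes were chosen on their brightest probe, so the other probes are the measure that did not choose them. Copg2 is an exception among the 6: its next brightest probe overlaps the brightest on the genome, so it is not a separate measure. When the gene was read from the kept probe nearest its 3′ end, a choice made after seeing the data, the early difference was -0.045 for Smarca4, -0.0401 for Rtf1 and -0.00105 for Dicer1. Whether probes of a gene read different transcripts was not tested.

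**Figure D3:**
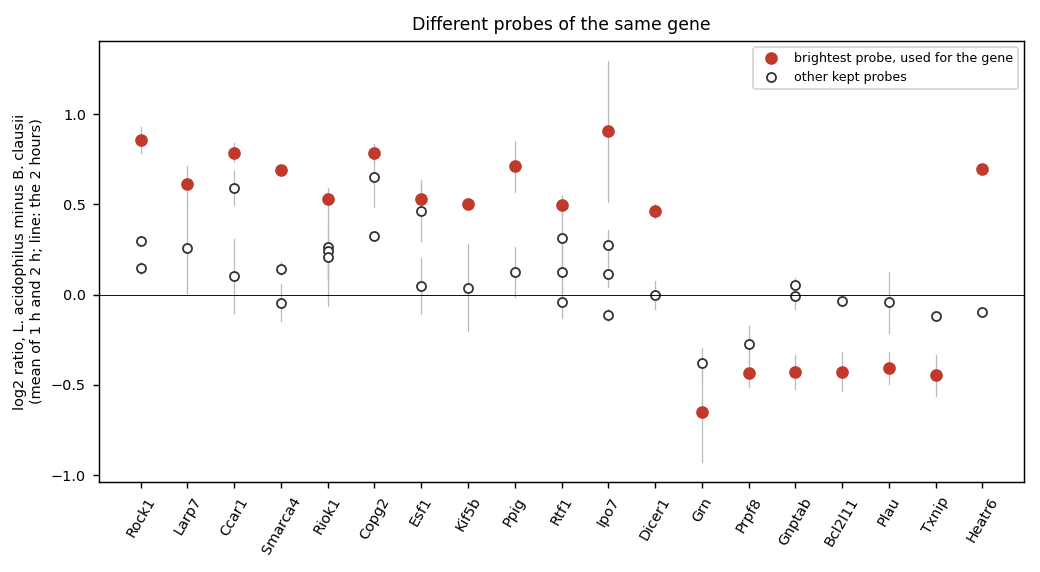
Difference of log2 ratio, L. acidophilus minus B. clausii, of every kept probe of the named genes that have more than 1, with Heatr6: points are means of 1 h and 2 h, lines join the hours. Red points, the brightest probes that stand for the gene, lie between 0.46 and 0.90 for the genes higher with L. acidophilus and between -0.65 and -0.41 for those higher with B. clausii; most open points, the other probes, lie nearer 0.

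Gene lists showed small shifts of whole groups. All genes had a median early difference of 0.01, with 32.5% higher after L. acidophilus at both hours and 27.2% higher after B. clausii. No member of any list passed the test. The lists were chosen with earlier results of these data known and carry no test of their own.

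Lysosomal hydrolases and membrane proteins had a median of -0.12: 25 of 42 members were higher with B. clausii at both hours and 3 with L. acidophilus. Lamp2, a main protein of the lysosomal membrane, differed by -0.20 and -0.25 at 1 h and 2 h. The sugar hydrolases Glb1 and Naglu differed by -0.22 and -0.26 and by -0.41 and -0.18. Lipa, the acid lipase, went the other way at 0.37 and 0.26. Gla, alpha-galactosidase, was apart at 1 h alone: its B. clausii ratio was 1.08 at 1 h and 0.18 at 2 h, and its L. acidophilus ratios were -0.04 and 0.09.

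Fc, complement and phagocytic receptors had a median of -0.12, with 11 of 17 members higher after B. clausii at both hours and 2 higher after L. acidophilus. Fcgr3, a low-affinity receptor for antibody, had ratios of -0.20 and 0.02 after L. acidophilus and of 0.19 and 0.35 after B. clausii. Itgb2, the beta chain of complement receptor 3, had 0.21 and 0.40 against 0.58 and 0.67. Msr1, a scavenger receptor, differed by -0.28 and -0.31, and Fcer1g, the signalling chain of Fc receptors, by -0.42 and -0.20. Both arrays of B. clausii lay above both of L. acidophilus in 10 of the 17, against 15.6% of all genes.

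Integrins and adhesion genes (median -0.10, 11 of 21 higher with B. clausii at both hours) and MHC class II genes (-0.07, 7 of 13) had the same sign. Itga5, the fibronectin receptor chain, had ratios of 0.11 and 0.08 after L. acidophilus and of 0.33 and 0.50 after B. clausii. Cd83, a maturation marker, had 0.18 and 0.37 against 0.55 and 0.65. The matrix protease and urokinase system (-0.11, 9 of 16) and the TNF superfamily (-0.09, 11 of 19) lay there as well. Macrophage markers had a median of -0.07 and 7 of 15 higher with B. clausii at both hours.

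ER chaperones had a median of -0.11, with 10 of 23 higher after B. clausii and 1 higher after L. acidophilus at both hours. Sdf2l1, an ER chaperone cofactor, differed by -0.26 and -0.29, and Dnajb9, a co-chaperone of BiP, by 0.40 and 0.17. Hypoxia and glycolysis genes (-0.07, 16 of 32 higher with B. clausii) included Gapdh, at -0.06 and -0.23 after L. acidophilus and 0.18 and 0.14 after B. clausii, and Ankrd37, at 1.33 and 0.94 against 1.56 and 1.35. With median centring in place of loess the lysosomal, ER chaperone and hypoxia medians lay 0.01, 0.05 and 0.08 above that of all genes, so their direction turned, while those of Fc receptors (-0.17), MHC class II (-0.15) and integrins (-0.04) did not.

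Some lists lay on the other side. Cell cycle and DNA replication genes had a median of 0.04, with 19 of 38 higher after L. acidophilus at both hours and 5 after B. clausii. Ccnd2, a cyclin of the early cell cycle, had ratios of -0.28 and -0.38 after L. acidophilus and of -0.57 and -0.67 after B. clausii. Nucleolar ribosome biogenesis had a median of 0.03 and 20 of 46 higher with L. acidophilus. Rrp1, a factor of ribosomal RNA processing, had -0.37 and -0.36 against -0.61 and -0.95. Nolc1, a nucleolar phosphoprotein, differed by 0.42 and 0.28, and the helicase Ddx18 by -0.31 and -0.15. SR and SR-related splicing proteins had a median of 0.04. Of 35 tested, 12 were higher with L. acidophilus at both hours and 6 with B. clausii, against 32.5% and 27.2% of all genes. The first of these counts was near its share over all genes. Rbm25, a member of that list, had -0.38 and -0.55 against -0.81 and -1.02. After loess these 3 medians were closer to that of all genes than those of the lysosomal, Fc receptor and integrin lists. With median centring the cell cycle, nucleolar and SR medians lay 0.20, 0.15 and 0.19 above that of all genes, further than the lysosomal (0.01), integrin (-0.04) and TNF superfamily (-0.02) ones, so the order of the lists rests on the scaling.

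Proteasome subunits (median 0.02), oxidative phosphorylation subunits (0.04), hnRNP proteins (0.05) and cytosolic ribosomal proteins (-0.03) had medians near that of all genes after loess. With median centring they lay 0.21, 0.24, 0.22 and 0.18 above it, among the highest of the lists, and the ribosomal proteins turned sign. These lists are bright, with medians of 13.6, 14.3, 12.7 and 15.7 log2 units against 8.4 for all genes. The part of brightness in this was not tested. Interferon-stimulated genes had a median of 0.03, with 9 of 23 higher after L. acidophilus and 8 after B. clausii. Cholesterol synthesis genes had 0.03, and Hsd17b7, an enzyme of that pathway, had 0.01 and 0.11 against -0.52 and -0.31. Keap1, the repressor of NRF2, had -0.38 and -0.35 against -0.79 and -0.69 in a list of antioxidant genes whose median was 0.01.

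**Figure D4:**
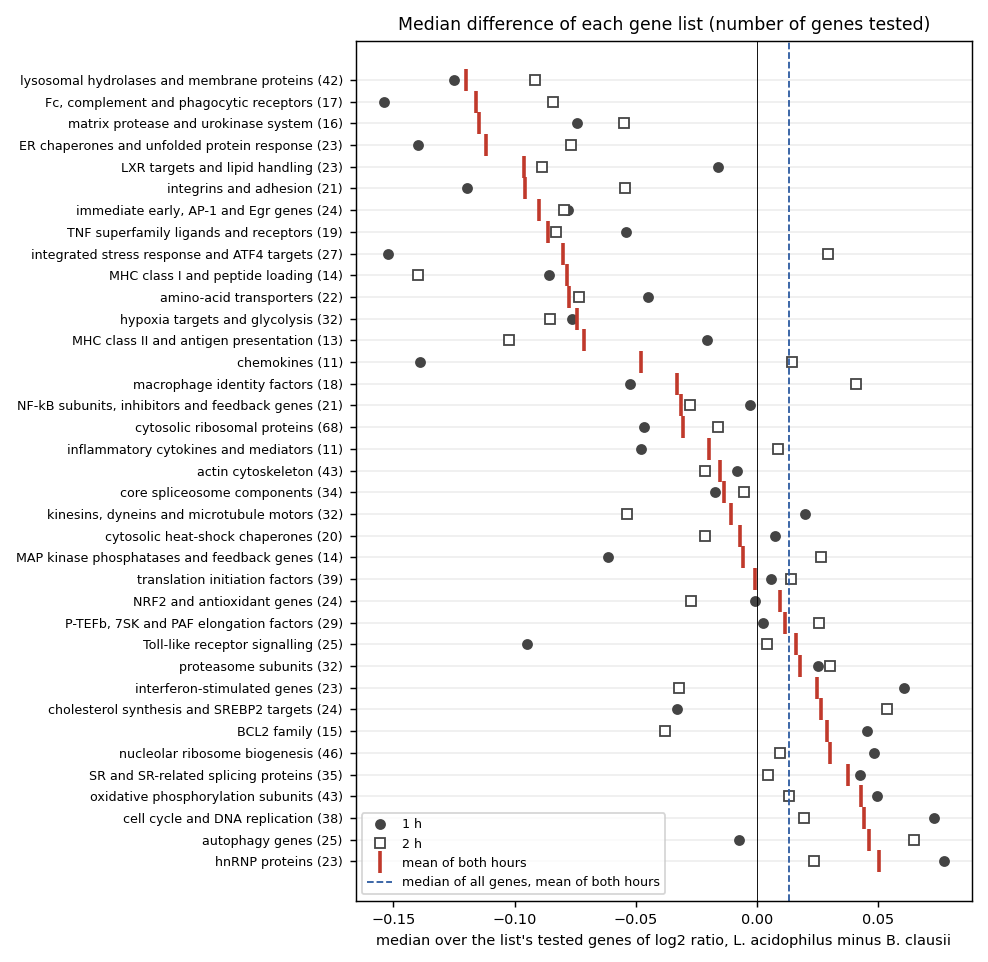
Median over the tested genes of each list of the log2 ratio after L. acidophilus minus that after B. clausii, at 1 h (filled circles), 2 h (open squares) and as the mean of both (red bars). After loess the medians run from -0.12 for lysosomal genes to 0.05 for hnRNP proteins, and the dashed line marks 0.01, the median of all genes.

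In several chemokines the direction turned between the hours. The chemokine Cxcl2, which draws neutrophils, had a ratio of 2.06 at 1 h and 1.84 at 2 h after L. acidophilus, and of 2.35 and 1.03 after B. clausii. Between the hours it thus moved by -0.22 with the first and by -1.32 with the second. Ccl3 went from 0.96 to 0.84 and from 1.21 to 0.44. Ccl7, a monocyte chemokine, went from 0.77 to 1.23 and from 1.17 to 0.92, and Ccl2 from 1.37 to 1.78 and from 1.48 to 1.42. All 4 were lower after L. acidophilus at 1 h and higher at 2 h.

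Ccl4, a close relative of Ccl3, went from 1.26 to 0.88 and from 1.30 to 1.03 and lacked this crossing. Of 11 chemokines tested, 6 were lower after L. acidophilus at 1 h and higher at 2 h, and 2 the reverse; among all genes 19.1% crossed in the first way. The crossing was not particular to chemokines. It was seen in 5 of 11 inflammatory cytokines and mediators (45.5%) and in 9 of 27 integrated stress response genes (33.3%). Of 21 genes of NF-kB subunits, inhibitors and feedback 3 crossed so (14.3%), and of 24 immediate early genes 3 (12.5%). Those last 2 shares were under that of all genes. The median difference of the chemokine list was -0.14 at 1 h and 0.01 at 2 h. This change between the hours was not tested, it rests on 1 array per bacterium and hour, and slide position goes with time.

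The inhibitors of NF-kB signalling had mixed values. Nfkbia, which encodes IkB-alpha, had 0.21 and 0.40 after L. acidophilus and 0.56 and 0.15 after B. clausii, crossing as Cxcl2 did. Tnfaip3, the ubiquitin editor A20, had 0.70 and 0.31 against 0.93 and 0.29. Tnip1, a partner of A20, had -0.36 and -0.37 against -0.24 and 0.46, so that it stood apart at 2 h on the B. clausii array. Nfkbie had 0.07 and -0.01 against -0.35 and -0.12.

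Among cytokines and receptors, Tnf had ratios of 0.31 and -0.25 after L. acidophilus and of 0.65 and -0.26 after B. clausii, and Il10 of -0.06 and -0.20 against -0.09 and -0.13. Ptgs2, the inducible cyclooxygenase, was negative with both, at -0.50 and -0.74 against -0.46 and -1.01. Tlr2, the receptor for bacterial lipoproteins, differed by 0.13 and -0.03, and Tlr4 by 0.02 and 0.11. Tlr9, the receptor for bacterial DNA, had 0.23 and 0.21 against 0.51 and 0.42. Cd14 differed by -0.26 and -0.20. Of the 25 genes of this panel, Il1b, Il6, Nos2, Cd86 and Arg1 did not pass the filter on dim probes, and the other 20 were tested. Of these, 1 was higher with L. acidophilus at both hours and 5 with B. clausii, against 32.5% and 27.2% of all genes.

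**Figure D5:**
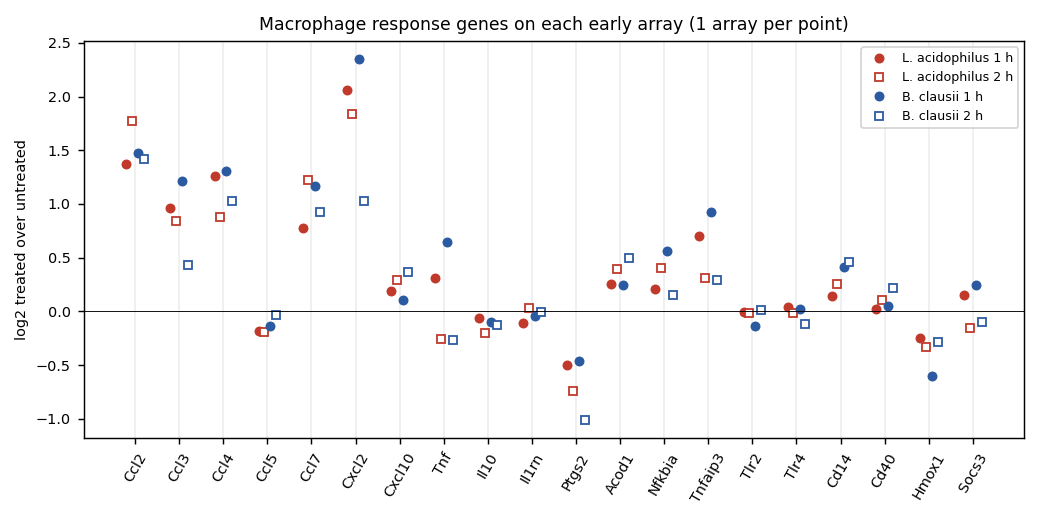
Log2 treated over untreated ratio of the 20 tested macrophage response genes, 1 point per array (circles 1 h, squares 2 h; red L. acidophilus, blue B. clausii). Cxcl2, Ccl2, Ccl3, Ccl4 and Ccl7 have the highest means with both bacteria, and the B. clausii square of Cxcl2 lies at 1.03, under the other 3 points of that gene.

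Immediate early, AP-1 and Egr genes had a median of -0.09, with 12 of 24 higher after B. clausii at both hours and 3 after L. acidophilus. Klf2, a zinc finger factor that quiets macrophages, had 1.29 and 0.05 after L. acidophilus and 1.41 and 0.77 after B. clausii, while its relative Klf4 had -0.34 and -0.11 against -0.50 and -0.47. Jun differed by -0.24 and -0.26 and Myc by -0.38 and -0.10. Dusp7, a MAP kinase phosphatase, had -0.23 and -0.07 against -0.71 and -0.49.

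Genes apart at 1 hour alone were named only where they were above background in both channels of both arrays. At 1 h, Tsr2 had a ratio of 0.91 after B. clausii and -0.22 after L. acidophilus and Septin9 0.73 and -0.27; at 2 h both lay between -0.22 and 0.17. Rhox5 and Hmgb1-rs17 had 1 h differences of 1.31 and 0.93. At 1 h the untreated signals differed by -1.73 in Rhox5 and by -2.51 in Hmgb1-rs17, and the treated ones by -0.42 and -1.58. Signals of both channels were thus higher on the B. clausii array at that hour, more so in the untreated channel. Chac1, a target of ATF4, had 0.68 and 0.43 against -0.25 and 0.18. At 2 h, Dok2, an adaptor that dampens kinase signalling, had 1.23 after B. clausii and 0.16 after L. acidophilus. Its treated signals differed by -0.48 and its untreated ones by 0.58 between the slides. Zdhhc1 had -0.72 and 0.33.

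The early difference was set against the late one in the same fit, and limma called 0 genes (0%), with 517 (3.5%) at an unadjusted p under 0.05 and a smallest adjusted p of 0.992. For the late difference alone it called 3 (0.0203%), Esf1, Kif5b and Rtf1, each with an adjusted p of 0.0438 and all among the 15 genes above with the higher ratio after L. acidophilus. Their late differences were 0.97, 0.81 and 0.86, larger than the early ones of 0.53, 0.50 and 0.50. Early and late differences of a gene share 1 error estimate in the fit, so the late calls are no separate support for the early rank. All 3 genes were read from their brightest probe. The other, dimmer kept probe of Kif5b had early differences of -0.20 and 0.28. The late count was not recomputed under the alternatives. Of all genes, 32.6% had the same sign at all 4 times. Klf2 differed by -0.42 early and by 0.52 late, and Socs3, a feedback inhibitor of cytokine signalling, by -0.07 and 0.44. Ipo7 differed by 0.90 early and by 0.02 late. Leaving out any 1 time leaves 1 early or 1 late array per bacterium, so no count of this test is given for such fits.

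Probe composition went with the direction. The median GC content of the probes was 41.7% for the 878 genes with an unadjusted p under 0.05 and a higher ratio after L. acidophilus, 45% for the 582 with a higher ratio after B. clausii, and 43.3% for all genes. Its part in the differences was not tested. The 878 genes had a median ratio of 0.07 after L. acidophilus and -0.22 after B. clausii, and the 582 genes -0.07 and 0.22.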

How the data were processed

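Two-colour Agilent mouse arrays of 41174 non-control probes were scanned with Feature Extraction, version 10.7.3.1 per the file headers and 10.5.1.1 per the submitters' processing notes. The files hold spot intensity values per channel as deposited, and the log10 ratio of red over green that the authors' software computed from processed signals; the deposited series values are centred log10 ratios of the same kind. The title of each sample gave its group.

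Mean foreground intensities were corrected with normexp (offset 50) against the median local background. Where the software marked a local background as an outlier and it was over 3 times the median of its array, the median took its place and the spot was not used. Loess within each array followed, with control and outlier spots at weight 0. Replicate spots were averaged. A probe was kept if it was well above background in a channel on at least 2 of the 8 arrays, which left 21274, and the brightest kept probe stood for its gene, 14783 in all. Names came through RefSeq accessions where these matched (27670 probes), otherwise through symbols or synonyms (6134), and 7286 probes were not matched.

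Limma 3.58.1 (R 4.3.3) fitted all 8 arrays with a term per time, which pairs the bacteria at each hour, and a bacterium term for the early and for the late arrays, with 2 residual degrees of freedom; p-values were adjusted by Benjamini-Hochberg over all genes and called under 0.05. The p-values measure only the spread between times. The pairing comes from the label of the hour. The members and gene lists were chosen with earlier results of these data known. Named were the 15 genes per direction with the smallest p, a symbol and the same sign at 1 h and 2 h; 6 per direction for early against late; 5 per direction and hour; up to 2 per list where none was called; and a panel of 25. Other members of lists were named after their values were seen. The fit was tested on simulated data.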

Additional observations from a re-analysis of the deposited data

Results flagged for a closer look

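In 9 of the 30 named genes the ratio had one sign on both early arrays of one bacterium and the other sign on both early arrays of the other. In 3 the ratio was positive after L. acidophilus and negative after B. clausii: Ehbp1, with an early difference of 0.53, Raver2 with 0.61 and Ipo7 with 0.90. In 6 it was negative after L. acidophilus and positive after B. clausii: Fxyd2 with -0.44, Grn with -0.65, Nlrp3 with -0.41, Gnptab with -0.43, Mettl7b with -0.76 and Txnip with -0.45. The genes were chosen for their difference, and limma called none of them, so the opposite signs were not tested further. Mettl7b was above background in 2 of the 4 treated and 0 of the 4 untreated early channels, so the size and sign of its ratios are not measured against an untreated level. Some of the other ratios lay close to 0, such as 0.01 for Grn after B. clausii at 2 h and 0.03 and 0.04 for Fxyd2. Nlrp3 and Raver2 were above background in all 8 early channels but less bright than the median gene, at 6.89 and 6.88 log2 units against 8.45. The opposite signs were seen on the brightest probe of each gene. Ipo7, Grn, Gnptab and Txnip have other kept probes, and none of these showed them. The other Grn probe read 0.26 and 0.17 after L. acidophilus and 0.72 and 0.46 after B. clausii. The other Txnip probe read -0.23 and -0.17 against -0.12 and -0.03.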

How the results depend on the processing

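The early count of 0 genes held under the other background, signal, filter, probe and prior settings that were run, except median centring (7409 genes) and scaling to the spike-in controls (13706). Without the arrays of each time in turn it ran from 0 to 39, and the early against late count from 0 to 41. At an adjusted p under 0.1 it was 0 as well. Without a term for time, that is with no replicate block, both counts were 0. With the 4 early arrays alone 0 passed, and 1541 had an unadjusted p under 0.05.

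Counts of genes past a fold moved more. At 1 h the 165 genes at 1.5-fold became 995 with a normexp offset of 0, 373 with the local background as deposited, 2010 with the processed signals, 2015 with the series values, 3371 with median centring, 325 with no filter, 89 with probes above background on all early arrays, 503 in the treated channel alone and 3914 scaled to spike-ins; 35 were 2-fold apart. At 2 h the 51 became 551 with offset 0, 1317 with the processed signals, 1315 with the series values, 316 with median centring, 103 with no filter, 32 with probes above background on all early arrays, 239 in the treated channel and 2261 scaled to spike-ins; 3 were 2-fold apart. At both hours the 7 became 105 with offset 0, 4 with the background as deposited, 379 with the processed signals, 377 with the series values, 152 with median centring, 2 with the mean over probes, 13 in the treated channel, 4 with the probe nearest the 3′ end and 982 scaled to spike-ins; 0 were 2-fold apart.

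Of 596 values of the 30 named genes under the alternatives, 6 changed sign: Smarca4 (-0.045), Rtf1 (-0.0401) and Dicer1 (-0.00105) with the probe nearest the 3′ end, Dicer1 (-0.00732) scaled to spike-ins, and Fxyd2 (0.0108) and Plau (0.0274) with median centring. Of the rest, 550 kept direction and side, and the others passed the test under an alternative. Those others include values from fits without the arrays of a time, for which passing is not read as a result. Relative to all genes, 18 of 37 list medians kept their sign with median centring, 28 with the mean over probes, 30 with processed signals and 31 with the probe nearest the 3′ end. The causes were not tested.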
